A study of Mus musculus with 6 samples.

Results

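Matrix metalloproteinases are zinc-dependent enzymes that cut collagen, elastin and other proteins of the extracellular matrix, and tissue inhibitors of metalloproteinases (Timps) bind to them and block the active site. Most metalloproteinases are secreted as inactive precursors and some stay anchored in the cell membrane, so that what a tissue breaks down depends on enzyme, activator and inhibitor together. After myocardial infarction both families are known to take part in clearing dead tissue and in building the scar. Described here are 6 metalloproteinase genes (Mmp3, Mmp8, Mmp12, Mmp14, Mmp19 and Mmp23) and the 4 Timp genes of the mouse. They are 10 of the 36047 genes to which transcripts could be assigned. They were chosen by name, but with earlier results of these data known. All 10 passed the filter on low counts and were among the 20094 genes tested.

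The measurements are RNA-seq of infarct tissue from 3 mice given LGK974 and 3 given the solvent DMSO. LGK974 inhibits Porcupine, an acyltransferase, and Wnt proteins that have not been given their lipid by it are not secreted. All mice were C57BL6, 12 weeks of age by the labels and female by the study's methods, and all had ischemia/reperfusion (I/R) by closing and reopening the left anterior descending coronary artery; the infarct was taken 48 h after I/R. No unoperated or untreated group was compared here. The tissue is a mixture of cells, so that for any gene fewer cells of a type and less RNA per cell cannot be told apart.

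The libraries held 41579787 to 80398211 estimated counts, of which mitochondrially encoded genes took 28.2 to 53.7%. DMSO replicate 1 stood apart. Of 1458 olfactory, vomeronasal and taste receptor genes, which heart is not known to use, 99.3% had counts in this library against 60.2 to 88.5% in the others, and their median density was 34.9 counts per kb of transcript against 3.19 to 12.7. Where this library decided a value of the 10 genes, the value without it is given as well. The 10 cardiomyocyte markers were expressed in every library at a summed 39664 to 62979 CPM (counts scaled to library size).

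In the quasi-likelihood test of edgeR, adjusted over all genes by Benjamini-Hochberg, 0 of the 10 genes passed an adjusted p of 0.05, as did 0 of all 20094 (0%). At an unadjusted p under 0.05, 3 of the 10 were higher with LGK974, where the background over all genes was 6.26%, and 1 was lower, where it was 7.18%. These were Timp1, Mmp14 and Mmp23, and Timp4. Without DMSO replicate 1 there were 3 higher (Timp1, Mmp14 and Mmp8; background 7.12%) and 2 lower (Timp3 and Timp4; background 3.89%). In 5 genes every LGK974 library lay above every DMSO library (10.7% of all genes) and in 2 every LGK974 library lay below (7.27%). In the remaining 3 genes, Mmp3, Mmp8 and Mmp12, the groups overlapped. DESeq2, run on all genes with any count, called 1 of the 10 higher at an adjusted p under 0.05, Timp1, and 0 lower. Over the 22238 genes with an adjusted p in that fit, the shares were 0.985% higher and 0.432% lower. The median log2 fold change of the 10 genes was 0.42, against −0.13 over all genes tested. As the 10 were chosen with earlier results of these data known, the shares over all genes are no test of them.

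**Figure D1:**
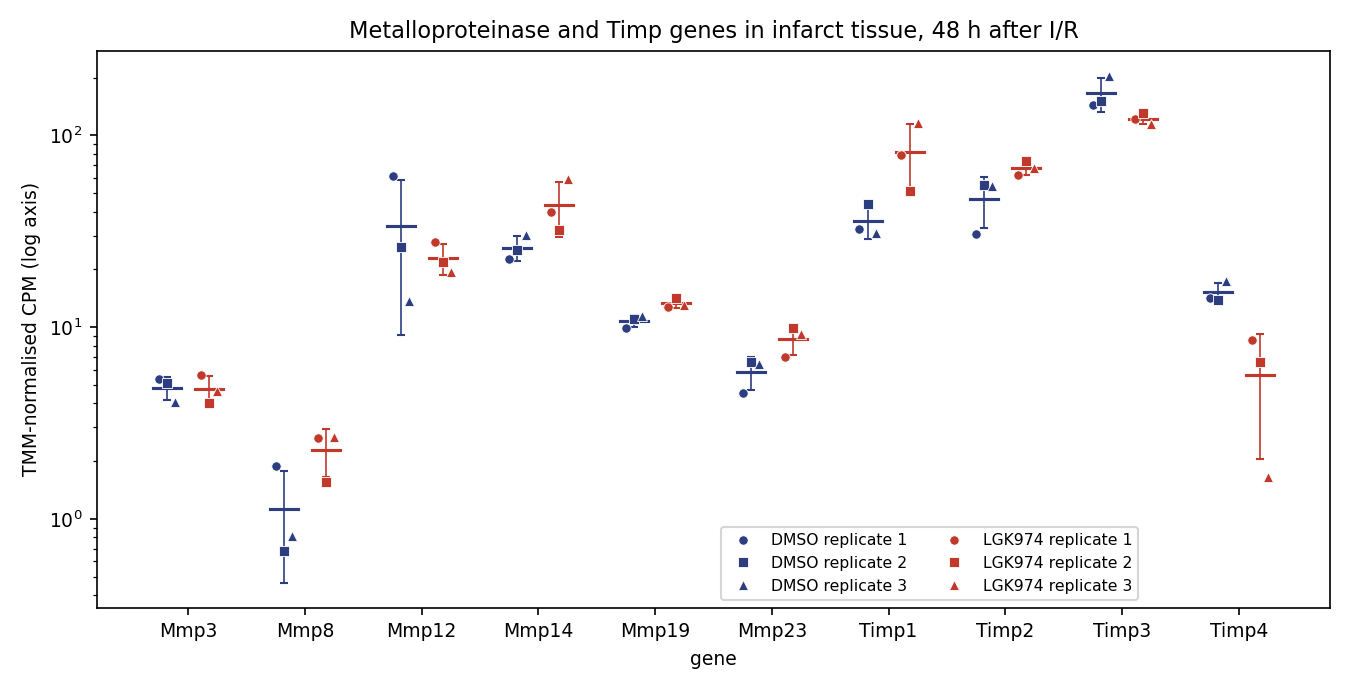
Expression of each gene in each library, in TMM-normalised CPM on a log axis; symbols are libraries, horizontal lines the group means and error bars the SD (n = 3). Timp1, Timp2, Mmp14, Mmp19 and Mmp23 lie higher in all 3 LGK974 libraries than in any DMSO library, and Timp3 and Timp4 lie lower.

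The active site of the metalloproteinases is a short stretch in which 3 histidines hold the zinc atom and a glutamate next to the first of them takes part in the cut. The coding bases of this stretch are shown because they are what the 6 genes share. They were read from the GENCODE transcripts of GRCm38, 5′ to 3′ on the coding strand, with the codons of the histidines, the glutamate and an invariant glycine in capitals.
Mmp3 (chr9:7449775-7449807, plus strand): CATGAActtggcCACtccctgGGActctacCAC
Mmp8 (chr9:7563086-7563118, plus strand): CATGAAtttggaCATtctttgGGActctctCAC
Mmp12 (chr9:7352914-7352946, plus strand): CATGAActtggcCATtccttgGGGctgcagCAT
Mmp14 (chr14:54437627-54437659, plus strand): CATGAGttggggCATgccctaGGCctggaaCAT
Mmp19 (chr10:128795673-128795705, plus strand): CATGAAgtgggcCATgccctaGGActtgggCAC
Mmp23 (chr4:155651528-155651560, minus strand): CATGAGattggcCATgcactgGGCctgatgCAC
Over these 33 bases Mmp3 and Mmp8 had 26 identical bases, as did Mmp3 and Mmp12, and the least alike pair, Mmp8 and Mmp14, had 20. Mmp3, Mmp8 and Mmp12 lie in a cluster of 10 listed metalloproteinase genes on chromosome 9, from 7272514 to 7699585, a span of 427072 bases, and the other 3 genes lie on chromosomes 14, 10 and 4.

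Among the secreted enzymes, Mmp12 is the macrophage metalloelastase, which cuts elastin. Summed over all its annotated transcripts it was expressed at 27.7, 21.9 and 19.3 CPM in LGK974 replicates 1, 2 and 3 and at 61.3, 26.3 and 13.7 CPM in DMSO replicates 1, 2 and 3. The DMSO libraries spread widely and enclosed all LGK974 libraries. Its log2 fold change was −0.55 (SE 0.478, adjusted p = 0.561 by edgeR), and it was 0.23 without DMSO replicate 1.

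The transcripts of Mmp12 did not move together. One transcript annotated as a retained intron, Mmp12-206 of 4474 bases, includes intron stretches at chr9:7347576-7348584 and chr9:7355472-7357663 (GRCm38), and 72.6% of its sequence words of 31 bases occur in no protein-coding transcript of the gene. Its TPM (a level per transcript length) was 3.85, 2.07 and 3.98 with LGK974 and 8.87, 5.12 and 2.40 with DMSO. The groups overlapped for this transcript. In the DMSO libraries it fell in the same order as the density of the receptor genes above (34.9, 12.7 and 3.24 counts per kb). With LGK974 it did not (11.8, 4.64 and 3.19), and the part of this background was not tested. The protein-coding transcripts together reached 7.05, 4.99 and 8.28 TPM with LGK974 and 1.32, 0.888 and 2.14 TPM with DMSO, without overlap. In every library the largest part came from the coding transcript of 1452 bases. This transcript had 5.76, 4.12 and 7.09 TPM with LGK974 and 0.685, 0.405 and 1.61 TPM with DMSO. That of 1185 bases was also higher in every LGK974 library. The longest, of 3607 bases, overlapped between the groups, at 0.237, 0.205 and 0.187 TPM with LGK974 and 0.363, 0.367 and 0 TPM with DMSO. That of 362 bases had counts only in DMSO replicate 1. All coding transcripts together held 33.2, 42.4 and 34.3% of the gene's counts with LGK974 and 5.35, 7.87 and 19.4% with DMSO, again without overlap. Over all tested genes, protein-coding transcripts held 90.3 to 93.5% of counts with LGK974 and 88.8 to 92.9% with DMSO. Other annotated transcripts held most counts of the gene in all 6 libraries.

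Counted on protein-coding transcripts alone, Mmp12 was expressed at 9.91, 9.82 and 6.94 CPM with LGK974 and at 4.06, 2.25 and 2.79 CPM with DMSO. Every LGK974 library lay above every DMSO library, with means of 8.89 ± 1.69 and 3.03 ± 0.930 CPM (SD, n = 3 each). In an edgeR fit of protein-coding transcripts of all genes, the log2 fold change was 1.55 (SE 0.294, unadjusted p = 8.27e-04, adjusted p = 0.241), and it stayed between 1.37 and 1.83 when 1 library was left out. This count was chosen after the transcript shares had been seen, and it did not pass the adjusted threshold. It is a sum over the coding transcripts, of which the longest, of 3607 bases, overlapped between the groups in TPM. How Kallisto divides reads between the transcripts is an estimate. Of the words of 31 bases found in Mmp12-206 and in no coding transcript, 9.42% also occur in transcripts of other genes, and the part of such reads in the result was not tested.

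**Figure D2:**
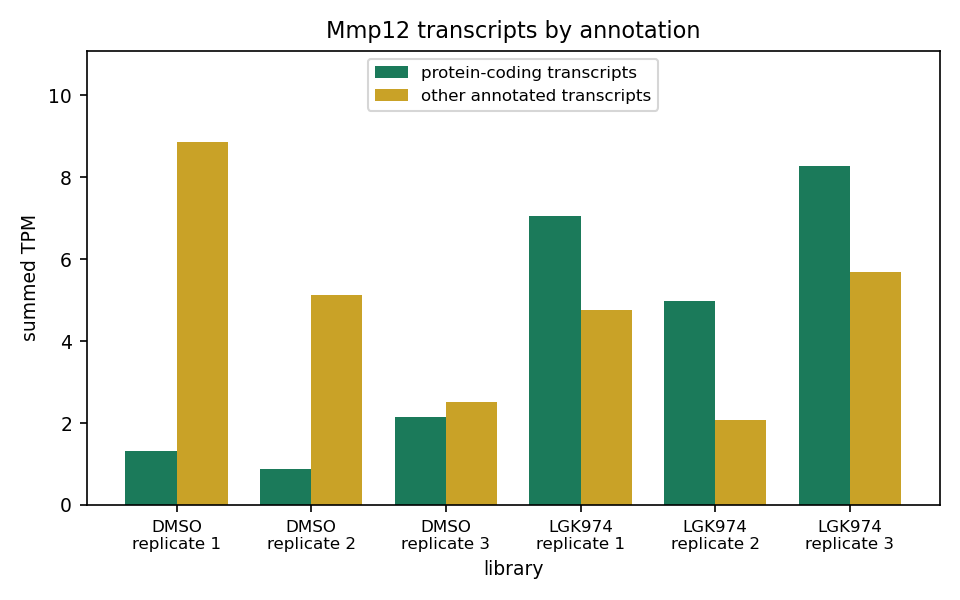
Summed TPM of the protein-coding transcripts of Mmp12 (green) and of its other annotated transcripts (yellow) in each of the 6 libraries. The coding bars stand between 4.99 and 8.28 with LGK974 and between 0.888 and 2.14 with DMSO, while the other transcripts are highest in DMSO replicate 1.

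Mmp8, the neutrophil collagenase, was the least expressed of the 10 genes, with 2.64, 1.55 and 2.68 CPM under LGK974 and 1.89, 0.683 and 0.811 CPM under DMSO. DMSO replicate 1 lay above LGK974 replicate 2, so the groups overlapped. For Mmp8 the log2 fold change was 1.02 (SE 0.531, adjusted p = 0.389 by edgeR) and 1.63 without DMSO replicate 1. In DMSO replicates 1 and 2 the density of Mmp8 counts was 0.886 and 1.07 times that of the receptor genes above, against 4.20 to 22.1 times in the other 4 libraries. In those 2 libraries Mmp8 was therefore not detectable above background. The summed level of the neutrophil markers was 60.8 to 90.6 CPM with LGK974 and 89.9 to 176 CPM with DMSO, or 89.9 to 119 CPM without DMSO replicate 1. Of the 12 markers 6 were tested, 4 below 0 and 2 above 0 in log2 fold change, and all 6 overlapped between the groups; Ly6g, Elane, Camp, Ltf, Ngp and Retnlg were too low to test and had 0 counts in at least 1 library. Their part in the result was not tested.

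Mmp3 is stromelysin-1, which cuts proteoglycans and activates other metalloproteinases. It was expressed at 5.61, 4.01 and 4.67 CPM with LGK974 and at 5.35, 5.09 and 4.05 CPM with DMSO. The groups overlapped throughout. For Mmp3 the log2 fold change was −0.02 (SE 0.248, adjusted p = 0.975 by edgeR), with either sign when 1 library was left out (−0.17 to 0.16). Of its words of 31 bases, 14.6% are shared with other genes, chiefly its neighbour Mmp10, which was expressed at only 0.0940 to 0.729 CPM.

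Mmp19, a secreted metalloproteinase of many tissues, was expressed at 12.8, 14.1 and 13.0 CPM with LGK974 and at 9.88, 11.1 and 11.4 CPM with DMSO. The groups did not overlap, but the distance was small, with a log2 fold change of 0.30 (SE 0.155, adjusted p = 0.384 by edgeR), and of 0.05 on counts scaled from TPM. The gene lies at chr10:128790910-128800824 (GRCm38) and shares 1001 exon bases with Gm47093 and Tmem198b on the opposite strand, so that reads of these bases cannot be told apart if strand was not recorded.

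Of the membrane-anchored enzymes, Mmp14 cuts collagen at the cell surface and activates the Mmp2 precursor in a complex with Timp2. It was expressed at 39.6, 32.0 and 58.9 CPM in LGK974 replicates 1, 2 and 3 and at 22.7, 25.1 and 30.1 CPM in the DMSO libraries. All LGK974 libraries lay above all DMSO libraries, and replicate 2 lay close to the highest DMSO value. Means were 43.5 ± 13.8 and 26.0 ± 3.77 CPM (SD, n = 3 each), 1.68-fold higher with LGK974. This gave a log2 fold change of 0.74 (SE 0.243, unadjusted p = 0.0162, adjusted p = 0.368 by edgeR), which ranged from 0.53 to 0.98 with 1 library left out. Mmp2, its substrate, was expressed at 16.7 ± 3.12 and 16.4 ± 4.52 CPM (SD, n = 3 each), with a log2 fold change of 0.02 (SE 0.235).

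Mmp23 is held in the membrane by its N-terminal end. It was expressed at 7.01, 9.89 and 9.18 CPM with LGK974 and at 4.52, 6.58 and 6.41 CPM with DMSO. The lowest LGK974 library lay just above the highest DMSO library. The log2 fold change was 0.57 (SE 0.239, unadjusted p = 0.0442, adjusted p = 0.368 by edgeR). Without DMSO replicate 1, the lowest library, it was 0.43, and edgeR's unadjusted p was no longer under 0.05. A transcript annotated as a retained intron, Mmp23-202, had 8.80, 11.1 and 12.1 TPM with LGK974 and 4.86, 2.47 and 6.76 TPM with DMSO, more than the coding transcript in 5 of 6 libraries. On protein-coding transcripts alone the groups overlapped, with a log2 fold change of 0.37 (SE 0.450, unadjusted p = 0.435 by edgeR).

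**Figure D3:**
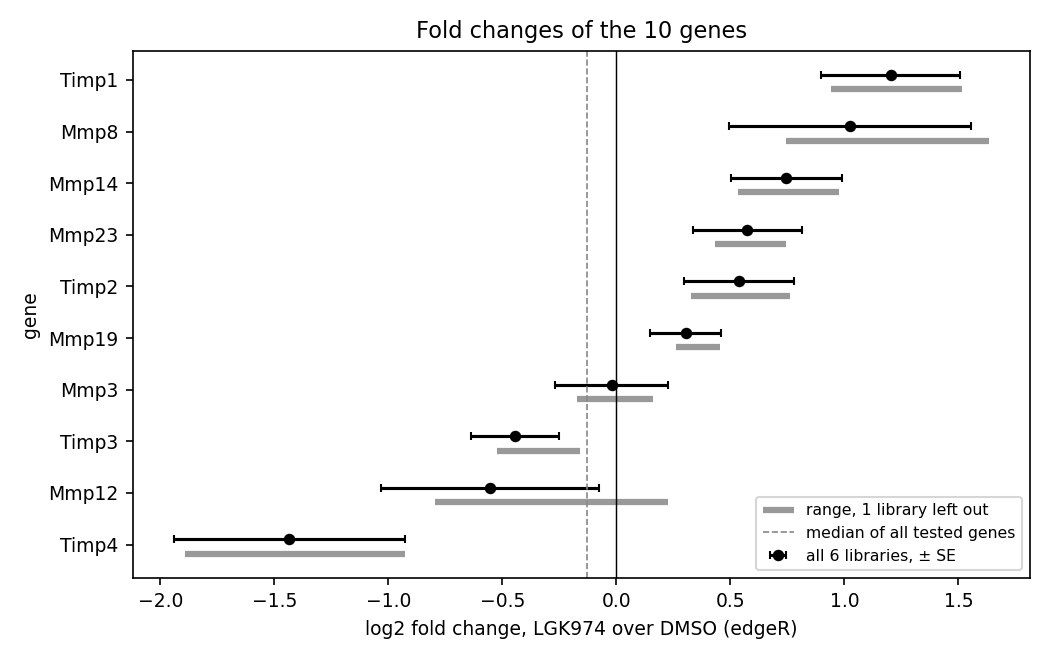
Log2 fold change of LGK974 over DMSO for each gene, with its SE from edgeR (black) and the range over the 6 fits that each left out 1 library (grey). The dashed line is the median of all tested genes, −0.13; the grey ranges of Mmp3 and Mmp12 cross 0.

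The Timps block metalloproteinases with the first residues of the mature protein, where a cysteine binds the zinc of the enzyme. The coding bases of this end are shown because it is the inhibitory part that the 4 genes have in common, with the codons of the first pair of cysteines in capitals (GENCODE transcripts of GRCm38, 5′ to 3′ on the coding strand).
Timp1 (chrX:20871111-20871137, plus strand): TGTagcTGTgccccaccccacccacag
Timp2 (chr11:118354986-118355012, minus strand): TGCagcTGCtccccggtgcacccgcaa
Timp3 (chr10:86300923-86300949, plus strand): TGCacaTGCtctcccagccatccccag
Timp4 (chr6:115251665-115251691, minus strand): TGCagcTGTgcgcctgcgcacccccag
Over these 27 bases Timp1 and Timp4 were most alike, with 21 identical bases, and Timp1 and Timp3 least, with 16. In expression this most alike pair had the fitted values farthest apart among the 4 Timps, as given next.

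Timp1 inhibits most secreted metalloproteinases and is a weak inhibitor of membrane-anchored ones. It was expressed at 79.2, 51.0 and 116 CPM in LGK974 replicates 1, 2 and 3 and at 32.4, 43.8 and 30.9 CPM in DMSO replicates 1, 2 and 3. The groups did not overlap, and LGK974 replicate 3 was the highest. Means were 82.2 ± 32.8 and 35.7 ± 7.05 CPM (SD, n = 3 each), 2.30-fold higher with LGK974. This is a log2 fold change of 1.20 (SE 0.306, unadjusted p = 0.00461, adjusted p = 0.368 by edgeR), which ranged from 0.94 without LGK974 replicate 3 to 1.51 without LGK974 replicate 2. DESeq2 gave an adjusted p of 0.0129 for Timp1, the smallest of the 10 genes.

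Timp2, which inhibits membrane-anchored enzymes and takes part in the activation of Mmp2, was expressed at 62.3, 73.8 and 67.3 CPM with LGK974 and at 30.5, 54.8 and 54.5 CPM with DMSO. The groups did not overlap, and DMSO replicate 1 was far below the rest. The log2 fold change was 0.54 (SE 0.242, unadjusted p = 0.0571, adjusted p = 0.368 by edgeR), and 0.33 without DMSO replicate 1.

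Timp3 stays bound to the extracellular matrix and also inhibits ADAM proteases. It was expressed at 122, 130 and 114 CPM with LGK974 and at 144, 150 and 204 CPM with DMSO. All LGK974 libraries lay below all DMSO libraries, and DMSO replicate 3 was the highest. The log2 fold change was −0.44 (SE 0.193, unadjusted p = 0.0517, adjusted p = 0.368 by edgeR), and −0.16 without DMSO replicate 3.

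Timp4 is known for its expression in the heart. It was expressed at 8.55, 6.59 and 1.66 CPM in LGK974 replicates 1, 2 and 3 and at 14.2, 13.9 and 17.3 CPM in the DMSO libraries. The groups were apart by more than the spread of the DMSO libraries, and LGK974 replicate 3 was far below the other 2. Means were 5.60 ± 3.55 and 15.1 ± 1.91 CPM (SD, n = 3 each), 2.70-fold higher with DMSO. On the log2 scale the fold change was −1.43 (SE 0.508, unadjusted p = 0.0232, adjusted p = 0.368 by edgeR) and −0.93 without LGK974 replicate 3. DESeq2's adjusted p was 0.106.

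LGK974 replicate 3 had the highest Timp1 and Mmp14 and the lowest Timp4, and it also had the lowest mitochondrial share of counts, 28.2%, and the lowest summed cardiomyocyte markers, 39664 CPM. Cardiomyocyte markers had a summed level of 39664 to 56629 CPM with LGK974 and 45385 to 62979 CPM with DMSO, with 9 of 10 below 0 in log2 fold change, all 9 with overlapping groups. The exception was Actc1, higher in every LGK974 library with a log2 fold change of 0.86 (SE 0.309; adjusted p = 0.0423 by DESeq2). The summed monocyte and macrophage markers were 606 to 728 CPM with LGK974 and 270 to 404 CPM with DMSO, and 11 of the 12 were higher in every LGK974 library, as were 10.7% of all genes. Fibroblast markers summed to 2319 to 3984 CPM with LGK974 and 1252 to 1787 CPM with DMSO, and 5 of the 10 were higher in every LGK974 library, beside the same 10.7%. Summed endothelial markers overlapped, with 518 to 592 CPM with LGK974 and 455 to 631 CPM with DMSO. Of the 8 endothelial markers 7 overlapped between the groups. The other, Vwf, was lower in every LGK974 library, as were 7.27% of all genes, with a log2 fold change of −0.37 (SE 0.192). None of the marker genes was at 0 in any library outside the neutrophil list. The part of these cell types in the results for the 10 genes was not tested.

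Levels of different genes can be set beside each other only per length, in TPM, which is not corrected for the composition of a library as the CPM above are. In DMSO libraries Timp1 came first at 45.9 ± 14.4 TPM, followed by Timp3 at 40.7 ± 12.6, Timp2 at 11.9 ± 5.24 and Mmp14 at 11.03 ± 4.02 (SD, n = 3 each). Timp1 and Timp3 did not differ beyond their spread, and neither did Timp2 and Mmp14. Mmp23, Mmp12, Timp4 and Mmp19 followed at 7.83, 6.95, 6.58 and 5.06 TPM with SDs of 2.07 to 2.89, so that neighbours among them did not differ beyond their spread, and Mmp3 (2.49 TPM) and Mmp8 (0.393 TPM) came last. With LGK974 the order began with Timp1 at 151 ± 116 TPM, above Timp3 in each of the 3 libraries, Timp3 at 35.1 ± 11.6, Mmp14 at 23.7 ± 16.6 and Timp2 at 21.2 ± 8.10, and continued with Mmp23 at 16.1, Mmp12 at 10.9, Mmp19 at 6.87, Mmp3 at 3.28, Timp4 at 2.47 and Mmp8 at 1.19 TPM. Timp4 and Mmp3 did not differ beyond their spread with LGK974, and Timp4 lay below Mmp3 only in replicate 3, at 0.66 against 4.63 TPM. On this scale 4 of the 7 genes whose groups did not overlap in CPM, Timp1, Mmp14, Mmp19 and Timp3, overlapped between the groups. For Timp1, LGK974 replicate 2 was at 54.3 TPM and DMSO replicate 2 at 60.6 TPM.

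Shares within a library do not depend on its scaling. Timp1 made up 68.5, 55.8 and 78.0% of the summed Timp TPM with LGK974 and 45.0, 50.01 and 36.6% with DMSO. The share of Timp3 was 18.8, 25.8 and 13.3% with LGK974 and 40.3, 32.7 and 43.8% with DMSO. Timp4 held 2.50, 2.51 and 0.184% with LGK974 and 6.42, 5.35 and 7.08% with DMSO. These 3 shares did not overlap between the groups, whereas that of Timp2 did (8.50 to 16.0% and 8.30 to 12.5%). Across the families, the ratio of summed Timp TPM to the summed TPM of the 6 metalloproteinases was 3.28, 2.58 and 3.74 with LGK974 and 2.45, 3.35 and 3.41 with DMSO. Means of 3.20 ± 0.586 and 3.07 ± 0.538 (SD, n = 3 each) differed by less than the spread between libraries. The shares and ratios carry no test, since they are sums over the chosen genes.

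**Figure D4:**
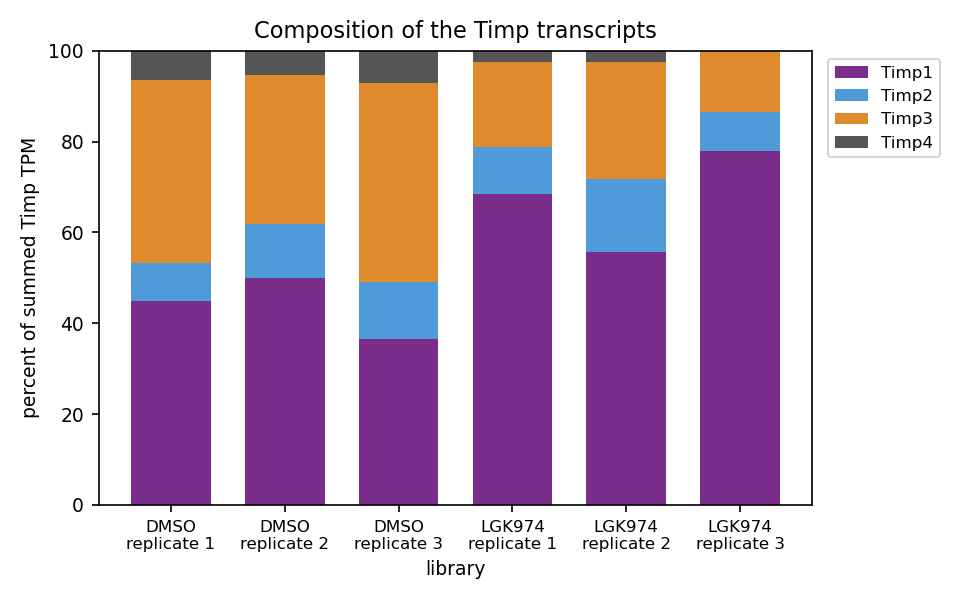
Share of each Timp gene in the summed Timp TPM of each library, in percent. The share of Timp1 is 36.6 to 50.01% in the DMSO libraries and 55.8 to 78.0% in the LGK974 libraries, and those of Timp3 and Timp4 are smaller in the LGK974 libraries.

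In the mouse genome 3 of the 4 Timp genes lie inside synapsin genes, which encode proteins of synaptic vesicles, on the opposite strand. Timp1 (chrX:20870166-20874735) lies inside Syn1 and shares 0 exon bases with it. Timp3 (chr10:86300372-86349506) lies inside Syn3 and shares 1733 exon bases, and Timp4 (chr6:115241892-115252205) lies inside Syn2 and shares 90. Timp2 (chr11:118301069-118355740) has no synapsin host in the annotation. Each host moved in the direction of its Timp in fitted value, with log2 fold changes of 0.57 for Syn1 (SE 0.355), −1.20 for Syn3 (SE 0.375) and −0.77 for Syn2 (SE 0.581), all with an adjusted p of at least 0.368 by edgeR. Without DMSO replicate 1 they were 0.63, −0.87 and −0.34. The groups overlapped for Syn2, at 1.99, 1.06 and 0.595 CPM with LGK974 and 3.07, 1.88 and 1.28 CPM with DMSO. Within each group Syn2 fell in the same order as the median density of the receptor genes above. That density was 11.8, 4.64 and 3.19 counts per kb with LGK974 and 34.9, 12.7 and 3.24 with DMSO. The part of this background in the values of the synapsins was not tested. Syn3 was lower in every LGK974 library, at 3.42, 1.75 and 2.004 CPM against 7.62, 4.16 and 4.76 CPM. Of the words of 31 bases of Timp3, 21.8% occur in other genes, Syn3 first among them, and how Kallisto divided the reads of this pair is an estimate. At 1.75 to 7.62 CPM, Syn3 held far fewer counts than Timp3 at 114 to 204 CPM, and its part in the value of Timp3 was not tested.

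Of the other 17 metalloproteinase genes, 15 were tested. At an unadjusted p under 0.05, 0 were higher (6.26% of all genes) and 0 lower (7.18%). Separated upwards were 0 (10.7% of all genes) and downwards 0 (7.27%). The median log2 fold change was −0.32 against −0.13 over all genes. The genes of this list with the smallest p were Mmp1a, Mmp25, Mmp28, Mmp21 and Mmp17. Their log2 fold changes were −3.20, −1.01, −0.56, −1.29 and −0.32, with unadjusted p from 0.119 to 0.266 in the edgeR fit. Mmp1a was at 0 in 1 library of each group and too low to test without DMSO replicate 1. Without that library Mmp25, Mmp21 and Mmp17 were at −0.42, −0.51 and −0.08, and Mmp28 at −0.76. Mmp9, the gelatinase of neutrophils and macrophages, was expressed at 4.31 ± 2.28 and 4.46 ± 0.539 CPM (SD, n = 3 each).

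Among 26 ADAM and ADAMTS proteases, which shed proteins from the cell surface or cut proteoglycans and procollagen, 6 were higher (6.26% of all genes) and 2 lower (7.18%) at an unadjusted p under 0.05. In 7 every LGK974 library lay above every DMSO library (10.7%), and in 2 every one lay below (7.27%), with a median log2 fold change of 0.18 against −0.13 over all genes. Adam8, a surface protease of leukocytes, was expressed at 57.5, 41.5 and 57.7 CPM with LGK974 and at 20.5, 34.1 and 26.0 CPM with DMSO. It was the only gene of this list that DESeq2 called, with a log2 fold change of 0.96 (SE 0.230, unadjusted p = 0.00337 by edgeR) and DESeq2's adjusted p of 0.0272. Adamts12, Adam17, Adam15 and Adam9 had log2 fold changes of 0.58, 0.46, 0.59 and 0.59 with unadjusted p from 0.0109 to 0.0280 in the edgeR fit. Adam17, which releases tumour necrosis factor from the membrane, is inhibited by Timp3.

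Of 12 genes that activate, anchor or clear metalloproteinases, 2 were higher (6.26% of all genes) and 0 lower (7.18%) at an unadjusted p under 0.05, and 4 were separated upwards (10.7%), with a median log2 fold change of 0.21 against −0.13 over all genes. Cd44, a hyaluronan receptor that holds metalloproteinases at the cell surface, was expressed at 93.0, 76.3 and 83.8 CPM with LGK974 and at 36.7, 48.9 and 48.8 CPM with DMSO. The groups were far apart, with a log2 fold change of 0.91 (SE 0.178, unadjusted p = 9.89e-04 by edgeR), and DESeq2's adjusted p was 0.00558. Plau, the urokinase that makes plasmin, had a log2 fold change of 0.80 (SE 0.225). For Lrp1, a receptor that clears protease and inhibitor complexes, it was 0.56 (SE 0.244), and for the plasminogen activator Plat 0.38 (SE 0.189). A2m, a broad protease trap, had −2.40 (SE 1.290), with DMSO replicate 1 at 3.72 CPM against 0.0491 to 0.538 CPM in the other 5 libraries, and −0.10 without that library.

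By Pearson correlation of log2 CPM over the 6 libraries, the genes whose pattern was most like that of Timp1 were Prss23, Top2a, Fam49b, Fam198b and Ccdc25, with r from 0.996 to 0.999. They were the extreme of 20094 genes over 6 points that share the same libraries and scaling, and the values are a description only. Prss23 encodes a secreted serine protease, and Top2a a topoisomerase of dividing cells. Top2a was expressed at 56.4, 40.1 and 70.5 CPM with LGK974 and at 28.2, 34.3 and 28.0 CPM with DMSO.

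Promoters of metalloproteinases are known for sites of AP-1, a transcription factor of stress and growth signals, and Wnt signals act in part through TCF factors. RefSeq promoter windows of 1 fixed length around the start (GRCm38.p6) were found for 9 of the 10 genes, not for Mmp19, in 11 windows. The letters TGAGTCA of an AP-1 site, on either strand, were in 2 of these windows, of Mmp3 and Mmp12, and in 5.2% of all 32851 windows. The letters CTTTGAT of a TCF site, on either strand, were in 0 of them and in 3.73% of all. The 100 bases before the start are shown for both hits, with the AP-1 letters in capitals.
Mmp3 (chr9:7445722-7445821, plus strand): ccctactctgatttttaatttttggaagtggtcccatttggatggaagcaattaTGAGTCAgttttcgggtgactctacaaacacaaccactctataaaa
Mmp12 (chr9:7347274-7347373, plus strand): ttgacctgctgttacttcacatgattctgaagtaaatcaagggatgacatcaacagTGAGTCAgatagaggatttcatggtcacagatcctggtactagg
In these windows the motif begins 46 and 44 bases before the start. The Mmp12 window shown has its start at 7347374, and the other Mmp12 window, with its start at 7344397, did not hold the motif. Both genes with the motif had groups that overlapped when all transcripts of the gene were summed. On protein-coding transcripts alone the groups of Mmp12 did not overlap.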

How the data were processed

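The authors deposited, per library, estimated counts and TPM of 118489 transcripts, obtained per the study's methods by Kallisto pseudoalignment to a GRCm38 transcriptome. The sources name both RiboZero depletion and the RNA Access capture kit, and neither strand nor the version of Kallisto is given in the sources used here. The estimated counts of the authors need not be whole. With GENCODE M21, 98.6% of the transcripts were joined to genes, summed and rounded. Reads that Kallisto divided between similar transcripts stay divided.

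The test was that of edgeR 4.0.16 under R 4.3.3 (quasi-likelihood F test, TMM scaling, no factor but treatment), run on genes that reached 10 counts in 3 or more libraries, with p adjusted by Benjamini-Hochberg and a threshold of 0.05. SEs were derived from the F statistic. DESeq2 (version 1.42.0), limma-voom (limma 3.58.1), other filters, scalings and counting units, a replicate block and leaving out each library were alternatives. The DESeq2 fit took all genes with any count, without the filter above. The replicates carry numbers and are taken to be separate mice, and no libraries were duplicates. When tested on simulated data in which 200 genes were shifted by 2 on the log2 scale, edgeR recovered 73.5% with 11 false among 158 calls, and DESeq2 88% with 86 false among 262. Precision was limited by 3 mice a group and, for Mmp8, also by its 33 to 224 counts per library.

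The 10 genes and the lists of other proteases, synapsins and cell type markers were chosen with earlier results of these data known. All 10 are described, up to 5 genes of each protease list with the smallest p are named, and the 5 genes most like the member with the smallest p. Mmp2, Mmp9 and Mmp10 are named beside these. Python 3.11.15, pandas 2.3.3 and matplotlib 3.10.9 made the tables and figures.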

Additional observations from a re-analysis of the deposited data

How the results depend on the processing

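Every alternative kept the direction of Mmp8, Mmp14, Mmp19, Mmp23 and the 4 Timps. The number of genes called by edgeR, 0 in the reported fit (2699 at an unadjusted p under 0.05), was 315 with DESeq2, 1206 with no filter on low counts, and 0 to 2 with 1 library left out, the 2 without DMSO replicate 1. Timp1 passed the threshold with DESeq2 (log2 fold change 1.24) and with no filter (1.35, edgeR's adjusted p = 0.00258), and Timp4 with no filter (−1.29, edgeR's adjusted p = 0.00166). The fit with no filter tested 34257 genes and called 305 higher and 901 lower. With a filter of 50 counts in 3 libraries, edgeR's adjusted p was 0.296 for Timp1 and 0.31 for Timp4. Mmp3, at −0.02, turned to 0.00781 with DESeq2 size factors, 0.0187 with DESeq2, 0.0047 with limma-voom, 0.151 with no filter, 0.0186 on counts scaled from TPM and 0.0131 on counts less background, and ranged from −0.17 to 0.16 with 1 library left out. Mmp12 turned to 0.24 on counts scaled from TPM and to 1.55 on protein-coding transcripts, and ranged from −0.80 to 0.23 with 1 library left out. The 10 genes of the other protease lists at an unadjusted p under 0.05 became 6 on counts scaled from TPM and 5 to 16 with 1 library left out (6 without LGK974 replicate 1, 5 without LGK974 replicate 3 and 16 without DMSO replicate 3). The ratio of Timp to metalloproteinase TPM, 3.20 with LGK974 and 3.07 with DMSO, became 4.77 and 5.19 on protein-coding transcripts. The order of the group means turned, and the groups overlapped in both counts. Protein-coding transcripts leave out the other transcripts of the enzymes and of Timp3 by construction. The cause of the other changes was not tested.

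Replicate numbers occur in both groups but name different mice. Libraries with the same number deviated together in part, with correlations of 0.475, −0.0482 and 0.391. Those with different numbers had correlations of −0.518 to 0.1. Means were 0.273 for the same number and −0.136 for different numbers. The reported fit did not pair the samples by number, and whether a number marks something shared between the groups was not tested. A block on the replicate number left 0 genes called by edgeR, and 3312 had an unadjusted p under 0.05, no call among the 10 genes changed, and Mmp12 on protein-coding transcripts had a log2 fold change of 1.57.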
